A study of Mus musculus with 22 samples.

Results

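Genes that build and regulate neuronal microtubules were described in primary motor cortex. These were the beta-tubulin genes Tubb2a, Tubb2b, Tubb3 and Tubb5, the alpha-tubulin genes Tuba1a, Tuba1b and Tuba4a, and the stathmin genes Stmn1, Stmn2 and Stmn3. They are 10 of the 15297 genes with reads in the deposited counts, picked by symbol, and the reads of all features with 1 of these symbols were summed per gene. The genes were chosen with results of both contrasts below already known, namely the levels in BERKO against WT mice and in right against left biopsies, so the values of these contrasts are a description of the 10 genes and support nothing beyond it.

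The samples came from male C57BL/6 mice, 16 to 20 weeks old, which were either BERKO, mice that lack estrogen receptor beta, or wild type (WT). A right and a left needle-puncture biopsy of motor cortex was taken from each animal, and 10 ng of RNA per biopsy, with ERCC spike-in RNA added, was sequenced by STRT, a method that reads the 5' end of each RNA. There were 10 BERKO biopsies from 5 mice and 12 WT biopsies from 6 mice. The study entered 6 BERKO mice and its submitters took out 1 as an outlier, and BERKO replicate 1 was not analysed here. The labels do not say how the BERKO allele was made or whether the WT mice were littermates.

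Microtubules are hollow polymers of alpha- and beta-tubulin dimers, and a neuron uses them as the frame of its axon and dendrites and as tracks for transport. Mammals hold several genes for each tubulin, whose proteins are close to identical but which are used in different cells and at different ages. Stathmins bind free tubulin dimers and promote the shortening of microtubule ends. In the cortex, tubulin and stathmin genes are known mainly for their part in the growth of young neurons, and mutations of TUBA1A, TUBB2B and TUBB3 in people disturb cortical development.

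Within the alpha-tubulins and within the beta-tubulins, the coding parts resemble each other while the 5' ends do not. A 5'-end assay rests on that difference. The first 24 coding bases of 6 of the tubulin genes are printed here 5' to 3' from the GENCODE transcripts of mouse build GRCm38, with the first 12 in capitals. These 12 bases encode the start of the protein, a stretch known in beta-tubulin as the signal through which free tubulin lowers the stability of its own mRNA.
Tubb2a: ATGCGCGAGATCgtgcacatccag
Tubb3: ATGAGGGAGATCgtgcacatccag
Tubb5: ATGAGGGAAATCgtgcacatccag
Tuba1a: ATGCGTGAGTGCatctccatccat
Tuba1b: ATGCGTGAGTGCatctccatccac
Tuba4a: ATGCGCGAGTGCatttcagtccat

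The region around the start of the gene is distinct in each. The 60 bases from 50 before to 10 from the RefSeq start (GRCm38.p6) are given for 4 genes, to show how unlike they are, in lower case with a TATAA motif in capitals.
Tubb2a, chr13:34077999-34078058, minus strand: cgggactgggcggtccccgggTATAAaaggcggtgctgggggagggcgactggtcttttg
Tubb3, chr8:123411503-123411562, plus strand: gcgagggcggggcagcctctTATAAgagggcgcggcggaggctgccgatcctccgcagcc
Tuba1a, chr15:98953492-98953551, minus strand: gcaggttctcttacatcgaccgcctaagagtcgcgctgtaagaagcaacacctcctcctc
Tuba1b, chr15:98934381-98934440, minus strand: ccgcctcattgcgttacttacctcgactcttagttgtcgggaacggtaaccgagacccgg
The motif TATAA was searched on the strand of the gene, 40 to 20 bases before the start. It was present in Tubb2a, 29 bases before the start, and in Tubb3, 30 bases before it, which is 2 of the 7 members with a promoter in the table. It was present in 1111 of all 32851 promoters of the table, or 3.38%. RefSeq promoters of Tubb2b, Stmn1 and Stmn2 are named only.

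Between whole transcripts, the best stretch of Tubb2a matched Tubb2b at 96.44% over 1350 bases, and that of Tuba1a matched Tuba1b at 98.31% over 1357 bases. Tubb2b matched the pseudogene Tubb2a-ps2 at 97.39% over 1342 bases, Tuba1b matched Gm17383 at 98.67% over 1356 bases, and Stmn1 matched Gm11223 at 99.78% over 450 bases. The first 50 bases of the 10 transcripts matched 0 other genes. A read that covers those bases has 1 place among the transcripts, whereas the split of coding reads between Tubb2a and Tubb2b, or between Tuba1a and Tuba1b, depends on how reads with several matches were treated. No source used here gives that, so the split is uncertain.

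In 7 of the genes 1 feature near the start held 83.2% or more of the reads. Per the deposited annotation (mm9 positions), the leading feature was a 5' UTR feature at position 34169877 of chromosome 13 for Tubb2a (97.4% of its reads), at 34222221 of chromosome 13 for Tubb2b (97.3%), at 134024313 of chromosome 4 for Stmn1 (98.1%), at 8509527 of chromosome 3 for Stmn2 (95.9%) and at 181048993 of chromosome 2 for Stmn3 (100%). An upstream feature led in Tubb3, at 125935452 of chromosome 8 (95.02%), and in Tuba1a, at 98783982 of chromosome 15 (83.2%). The other 3 had 2 large features each. Tubb5 had 72.9% of its reads in a 5' UTR feature and 23.5% in a coding one. Tuba1b had 51.2% in a coding feature and 47.9% upstream, and Tuba4a had 54.7% in a 3' UTR feature and 39.4% in a 5' UTR feature.

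Total reads per biopsy ranged from 249751 to 2018833, and per mouse from 1017873 to 1706160 in BERKO and from 1429548 to 2911717 in WT. The median was 996351 reads in right and 709809 in left biopsies, and the right biopsy was the deeper in 9 of 11 mice. All biopsies had reads from 3 lanes except BERKO replicate 5 left, with 1. On the first principal component of 5419 genes (15.1% of the variance) the right and left biopsies of WT replicate 1 and the left biopsy of WT replicate 2 stood apart. The column names hold a code of a letter and a digit, whose meaning neither they nor the labels give. Each letter of this code went with 1 genotype and 1 side. The effects of genotype and side and of whatever the letter stands for cannot be told apart. Esr2, which encodes estrogen receptor beta, had 10 reads in the BERKO biopsies and 3 in the WT biopsies, too few to check the labels. The excitatory neuron markers Slc17a7, Camk2a and Nrgn had reads in all biopsies, as a cortical label requires. All levels below are CPM, gene reads scaled by library size with TMM factors; they are compared within a gene, not between genes, and in bulk tissue fewer cells of a type and less RNA per cell cannot be told apart. The lowest count of any of the 10 genes in a biopsy was 16 reads and the highest 2651.

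**Figure D1:**
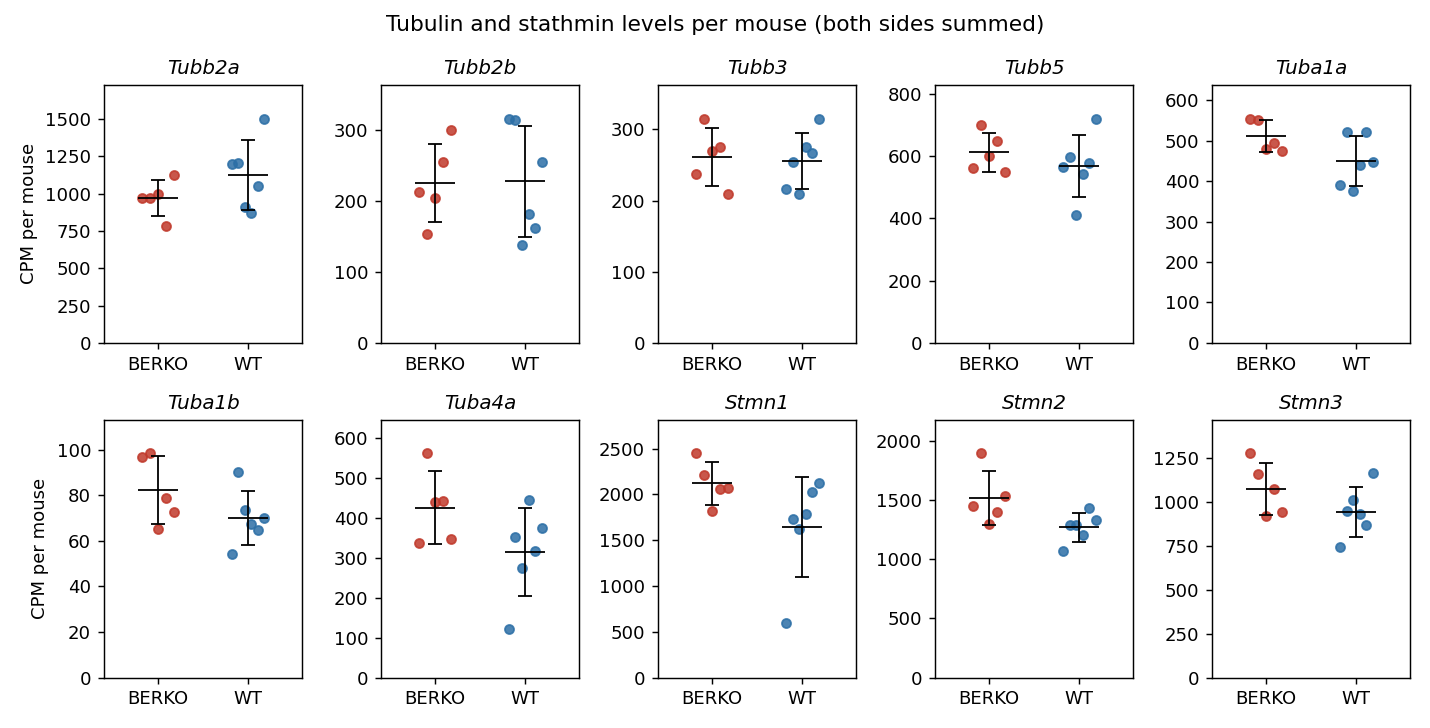
CPM of the 10 genes per mouse, right and left biopsies summed; BERKO mice (n = 5) are left of WT mice (n = 6) in each panel, points are mice, and the bars give mean and SD. In no gene do BERKO and WT mice separate, and WT replicate 1 is the lowest point of Stmn1 at 597 CPM.

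The first comparison asked whether the levels of these genes differed between BERKO and WT mice. The estimates were small. On the log2 scale, 8 of the 10 genes were above 0 in BERKO against WT, with a median of 0.19, beside a median of -0.0068 over all 9025 genes tested, of which 49.2% were above 0. None of the 10 passed the threshold (edgeR quasi-likelihood test, Benjamini-Hochberg adjusted p under 0.05), and neither did any have BERKO mice all on 1 side of the WT mice. Of all genes tested, 0.0776% passed and 1.33% had groups that did not overlap. At an unadjusted p under 0.05 the only member was Stmn2, against 9.92% of all genes, and DESeq2 called none of the 10.

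Among the beta-tubulins, Tubb2a encodes one of the main adult neuronal beta-tubulins. It had 973, 975, 1001, 784 and 1129 CPM in BERKO replicates 2 to 6, and 871 to 1504 CPM (median 1127) in WT mice. Only 1 of 5 BERKO mice was above the WT median, and the groups overlapped. The log2 difference was -0.21 ± 0.14 (SE, edgeR adjusted p 0.611). With 1 mouse left out it ranged from -0.27 to -0.11, the latter without WT replicate 6, and was -0.14 without BERKO replicate 5. Tubb2b, which is linked to cortical development, had 213, 154, 204, 255 and 300.1 CPM in BERKO mice, and 138 to 316 CPM (median 219) in WT mice. Its log2 difference was -0.02 ± 0.22 and changed sign in 10 of 19 alternatives, so it has no direction here. Tubb3, a marker of neurons, averaged 261 ± 40.5 CPM in BERKO mice and 256 ± 39.1 CPM in WT mice (SD, n = 5 and 6). Tubb5, which is expressed in many cell types, averaged 613 ± 62.7 CPM in BERKO mice and 569 ± 99.5 CPM in WT mice. The log2 differences of 0.03 ± 0.15 for Tubb3 and 0.11 ± 0.13 for Tubb5 were smaller than their SE, and that of Tubb5 ranged from 0.03 without WT replicate 3 to 0.19 without WT replicate 6.

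Among the alpha-tubulins, Tuba1a is the main alpha-tubulin of young neurons. It had 555, 552, 479, 494 and 475 CPM in BERKO mice, and 376 to 522 CPM (median 444) in WT mice. All 5 BERKO mice were above the WT median, but 2 WT mice lay among them, and the log2 difference was 0.19 ± 0.13 (adjusted p 0.630). Tuba1b, which is expressed in many cell types, averaged 82.3 ± 14.7 CPM in BERKO mice and 70.0 ± 11.9 CPM in WT mice, with a log2 difference of 0.24 ± 0.20. Tuba4a, an alpha-tubulin of mature neurons, had 338, 561, 439, 442 and 348 CPM in BERKO mice, and 122 to 444 CPM (median 335) in WT mice. All 5 BERKO mice were above the WT median. The log2 difference of Tuba4a, 0.44 ± 0.26 (edgeR adjusted p 0.582), was the highest of the 10 with all features counted. With promoter features alone, scaled to their own library sizes, it was 0.19, against 0.46 for Stmn1. The lowest WT value, 122 CPM, is that of WT replicate 1, and without that mouse the log2 difference was 0.27. The highest with 1 mouse left out was 0.56.

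Among the stathmins, Stmn1 is the broadly expressed member, Stmn2 (also called SCG10) is a neuronal one involved in the growth and repair of axons, and Stmn3 is a neuronal relative. Stmn1 had 2448, 2210.2, 1813, 2059 and 2071 CPM in BERKO mice, and 597 to 2122 CPM (median 1759) in WT mice. All 5 BERKO mice were above the WT median, and the log2 difference was 0.37 ± 0.26 (adjusted p 0.663). With 1 mouse left out it ranged from 0.19, without WT replicate 1, to 0.45. Stmn2 had 1449, 1892, 1299.8, 1397 and 1536 CPM in BERKO mice, and 1069.9 to 1429.8 CPM (median 1287) in WT mice. All 5 BERKO mice were above the WT median and 3 were above every WT mouse. The log2 difference was 0.26 ± 0.12 with an unadjusted p of 0.0375 and an adjusted p of 0.468 by the edgeR quasi-likelihood test. With 1 mouse left out it ranged from 0.17, without BERKO replicate 3, to 0.31. Stmn3 averaged 1077 ± 149 CPM in BERKO mice and 946 ± 142 CPM in WT mice, with a log2 difference of 0.19 ± 0.13. With 1 mouse left out it ranged from 0.12, without BERKO replicate 2, to 0.26. For all genes, the share with all 5 BERKO mice above the WT median was not computed.

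Scaling to the spike-in RNA in place of TMM moved the median of all genes to 0.19 and the 10 genes with it, so that Tubb2a came to 0.03 and Tuba4a to 0.70, with Tubb2a still below the median gene. Without the 3 WT biopsies that stood apart, the differences were 0.26 for Tuba4a, 0.20 for Stmn1, 0.20 for Stmn2 and 0.18 for Tubb2b, and Tubb3 was at -0.04. Summed excitatory neuron markers were 3646 to 5451 CPM in BERKO mice and 1965 to 4423 CPM in WT mice, and all 6 tested markers of the 7 on the list were above 0 on the log2 scale (median 0.49). Summed astrocyte markers were 1871 to 2698 CPM in BERKO mice and 1599.7 to 2400.2 CPM in WT mice. Other cell types lay the same way: 7 of 7 oligodendrocyte markers (median 0.30), 5 of 6 microglial (0.45), 4 of 4 endothelial (0.47) and 4 of 5 meningeal markers (0.69) were above 0, as were all 6 astrocyte markers (0.25). Summed microglial markers were 733 to 899.9 CPM in BERKO mice and 414 to 739 CPM in WT mice. Of the tested immature neuron markers 3 of 5 (median 0.26) and of the striatal ones 2 of 4 (median -0.01) were above 0. No marker of these lists passed the test, and the part of these levels in the tubulin and stathmin values was not tested.

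Within a side, BERKO against WT gave a log2 difference of 0.63 ± 0.26 for Tuba4a, 0.44 ± 0.26 for Tuba1b and 0.38 ± 0.15 for Stmn2 in right biopsies. In left biopsies Tuba4a was at 0.13 ± 0.22, Tuba1b at -0.14 ± 0.28 and Stmn2 at 0.01 ± 0.14. Stmn1 was at 0.27 ± 0.29 on the right and 0.45 ± 0.18 on the left. Tubb2a was at -0.08 ± 0.16 on the right and -0.53 ± 0.29 on the left, where 3 WT biopsies, replicates 6, 2 and 1, had 2178, 2093 and 1660.1 CPM and the other left biopsies 715 to 1127. The test of the difference between the sides is given below.

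**Figure D2:**
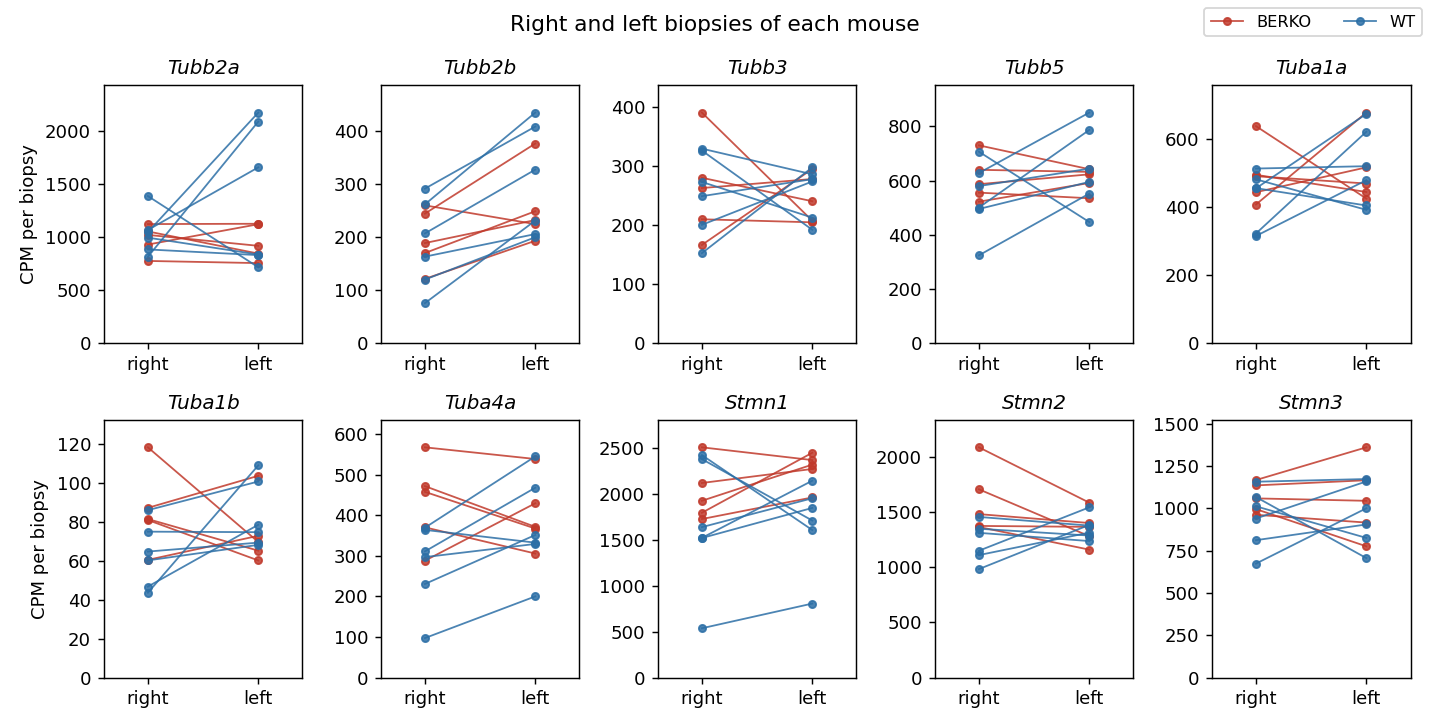
CPM of the 10 genes in the right and left biopsy of each mouse, joined by a line, with BERKO mice in red and WT mice in blue. The lines of Tubb2b go up to the left in 10 of 11 mice, and those of the other genes go in both directions.

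The second comparison set the right against the left biopsy of the same mouse. Tubb2b stood at 170, 121, 189, 260 and 244 CPM in the right biopsies of BERKO replicates 2 to 6, against 249, 193, 232, 224 and 377 CPM in their left biopsies. The WT mice, replicates 1 to 6, had 291, 262, 75.0, 163, 120 and 207 CPM on the right, against 409, 435, 231, 206, 200 and 327 CPM on the left. The right was the lower in 10 of 11 mice, 4 of 5 BERKO and 6 of 6 WT, the exception being BERKO replicate 5, whose left biopsy has 1 lane. Of all genes tested, 0.614% were lower on the right in 10 or more of the 11 mice. The mean was 191 ± 69.0 CPM on the right and 280 ± 89.7 CPM on the left (SD, n = 11 each).

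The log2 difference of Tubb2b was -0.60 ± 0.14, a level 0.66 times that of the left, with an unadjusted p of 0.00017 and an adjusted p of 0.288 by the edgeR quasi-likelihood test with the mouse as a block. It did not pass the threshold, which 0 of 8308 genes passed (0%) while 5.57% had an unadjusted p under 0.05. DESeq2 gave -0.61 with an adjusted p of 0.0141, past the threshold. It gave an adjusted p to only 2671 genes, of which 18 passed (0.674%), so its adjustment covers fewer genes than the 8308 of edgeR. Over the alternatives the estimate ranged from -0.68 to -0.46. Within BERKO mice it was -0.40 ± 0.21 and within WT mice -0.76 ± 0.19. The leading feature alone, the 5' UTR one, had 186 ± 66.4 CPM on the right and 270 ± 86.7 CPM on the left, and was lower on the right in 10 of 11 mice.

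The other 9 genes had log2 differences within -0.22 and 0.02, although Tuba4a reached -0.49 when promoter features alone were counted. These were -0.14 ± 0.16 for Tubb2a, -0.15 ± 0.12 for Tubb5, -0.17 ± 0.13 for Tuba1a, -0.14 ± 0.20 for Tuba1b, -0.22 ± 0.14 for Tuba4a, -0.13 ± 0.11 for Stmn1 and 0.02 ± 0.10 for Stmn2, while Tubb3 and Stmn3 lay within 0.01 of 0. In all, 8 of 10 were below 0, Tubb3 barely so, with a median of -0.14 beside a median of 0.05 over all genes, of which 55.8% were above 0. Under spike-in scaling, which put the median gene at 0.18, these 9 genes stood between -0.09 and 0.15 and Tubb2b at -0.46. Tuba4a was lower on the right in 1 of 5 BERKO mice and in 5 of 6 WT mice, Tuba1b in 2 of 5 BERKO and 5 of 6 WT, and Stmn2 in 0 of 5 BERKO and 3 of 6 WT.

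Cell type markers went in both directions. The summed levels of astrocyte, meningeal and endothelial markers were lower on the right in 8, 9 and 10 of 11 mice, and the list medians on the log2 scale were -0.39, -0.55 and -0.18. Summed astrocyte markers ran from 1435 to 2876 CPM on the right and 2205 to 3160 CPM on the left in BERKO mice, and from 1502 to 2551 CPM on the right and 1634 to 2628 CPM on the left in WT mice. No astrocyte marker had 0 reads in any of the biopsies. Of the immature neuron markers, Dcx and Sox11 had a median of 0 CPM over biopsies, Neurod1 of 12.0, Sox4 of 13.0 and Dpysl3 of 62.5 CPM. Their sum was lower on the right in 6 of 11 mice, while 4 of the 5 tested markers were above 0 (median 0.25). The excitatory neuron list had a median of 0.29 and the microglial list of 0.27, and summed striatal markers were lower on the right in 8 of 11 mice, with a list median of 0.03. Oligodendrocyte markers had a median of -0.06. No marker passed the threshold in right against left, and the part of these markers in the values of Tubb2b was not tested.

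**Figure D3:**
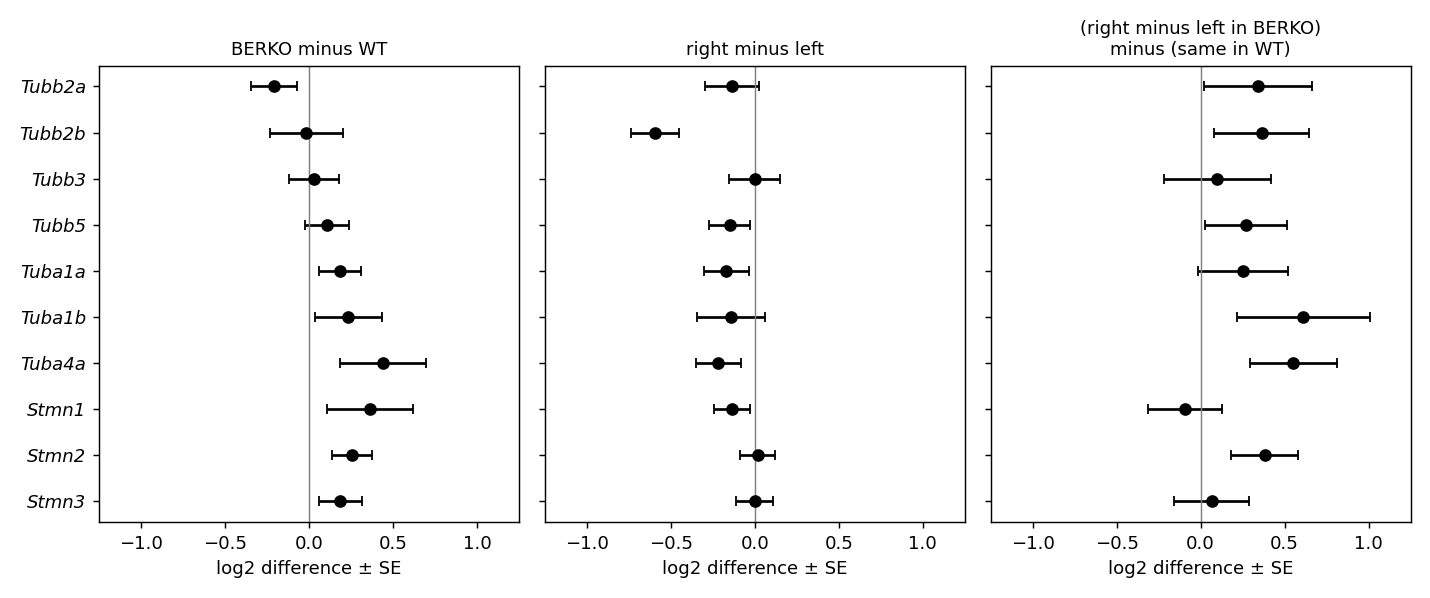
Log2 difference with its SE for the 10 genes, for BERKO minus WT, for right minus left, and for the right-left difference in BERKO minus that in WT. Tubb2b lies far from the other genes only for right minus left, at -0.60, and Tuba4a and Tuba1b lie highest in the last panel.

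The third comparison tested whether the right-left difference itself differed between BERKO and WT. It passed in 0 of the 8308 genes (0%), and 3.27% had an unadjusted p under 0.05. Among the 10 genes, Tuba4a had a log2 difference of 0.09 ± 0.19 between right and left in BERKO mice and of -0.47 ± 0.17 in WT mice, and the difference between these was 0.55 ± 0.26, with an unadjusted p of 0.0406 and an adjusted p of 0.998. That of Tuba1b was 0.61 ± 0.40, that of Stmn2 was 0.38 ± 0.20, and that of Tubb2b was 0.36 ± 0.28. Counting promoter features alone, Tuba4a was at 0.29 and Tuba1b at 1.01, and without WT replicate 3 Tubb2b was at 0.19. No difference between genotypes in the side values was detectable at this depth and number of mice.

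**Figure D4:**
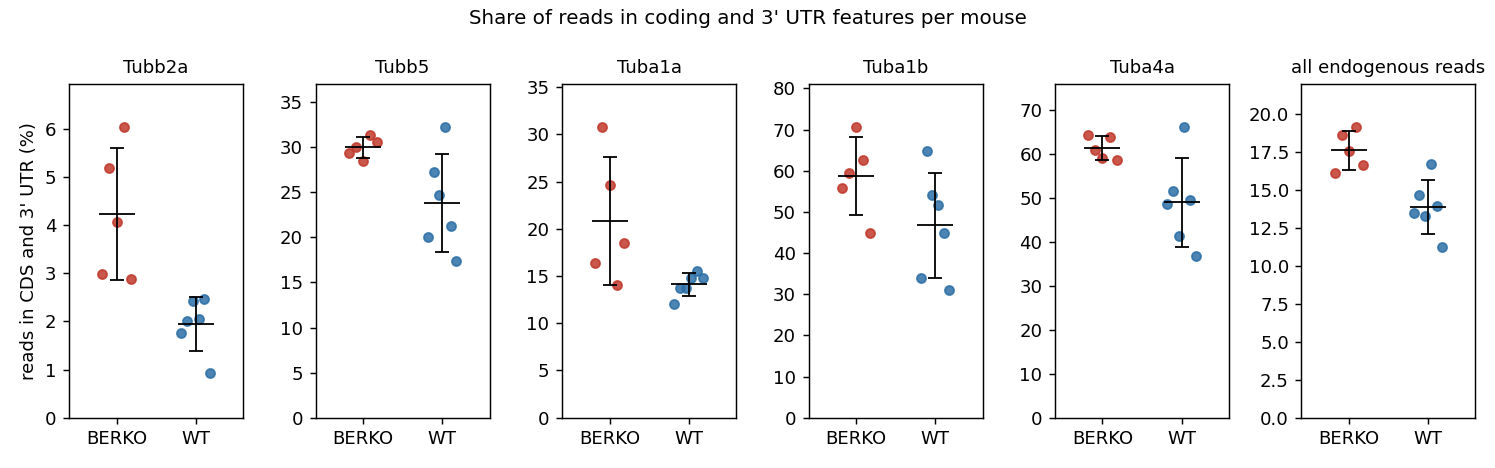
Share of reads in coding and 3' UTR features per mouse, for 5 tubulin genes and for all endogenous reads; BERKO mice (n = 5) are left of WT mice (n = 6), with mean and SD. The BERKO mice lie above all WT mice for Tubb2a, and for the other genes the points overlap.

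The share of a gene's reads that fell in coding or 3' UTR features, away from the usual start, was also set side by side for the 2 genotypes. For all endogenous reads it was 17.6 ± 1.27% in BERKO mice and 13.9 ± 1.79% in WT mice (SD, n = 5 and 6), and 3 of 5 BERKO mice were above every WT mouse. With each mouse left out in turn, the difference stayed between 3.20 and 4.29 percentage points. This measure was chosen after its values were seen, so all shares are given as a description, without a test. Tubb2a had 2.97, 5.19, 4.06, 6.03 and 2.89% in BERKO mice, and 0.931 to 2.47% in WT mice, so that its groups did not overlap. Among 3994 genes with 20 or more reads in each mouse and 20 or more such reads in all, 2.05% had all BERKO mice above all WT mice, 0% had all below, and 72.4% had the higher mean in BERKO mice; 8 of the 10 genes are among them, and 7 of these had the higher mean in BERKO mice. Tuba1a had 14.0 to 30.7% in BERKO mice and 12.0 to 15.5% in WT mice, with 4 of 5 BERKO mice above every WT mouse. Tubb5 averaged 30.0 ± 1.11% in BERKO mice and 23.8 ± 5.39% in WT mice, Tuba4a 61.3 ± 2.65% in BERKO mice and 49.0 ± 10.1% in WT mice, and Tuba1b 58.7 ± 9.46% in BERKO mice and 46.7 ± 12.7% in WT mice. Stmn2 averaged 4.46 ± 1.04% in BERKO mice and 3.00 ± 1.08% in WT mice. Tubb2b averaged 2.46% in BERKO mice and 2.82% in WT mice, Stmn1 had at most 0.170% in any mouse, and Stmn3 had no such feature.

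The genes with 2 large features are given feature by feature. The 3' UTR feature of Tuba4a at 75211806 of chromosome 1 averaged 261 ± 55.2 CPM in BERKO mice and 157 ± 78.8 CPM in WT mice, while its 5' UTR feature at 75215828 averaged 135 ± 32.8 CPM in BERKO mice and 141 ± 53.2 CPM in WT mice. The coding feature of Tubb5 at 35972737 of chromosome 17 averaged 169.5 ± 17.3 CPM in BERKO mice and 121 ± 27.7 CPM in WT mice, and its 5' UTR feature 422 ± 43.2 CPM in BERKO mice and 429 ± 95.5 CPM in WT mice. Tuba1b averaged 48.1 ± 9.88 CPM in BERKO mice and 32.9 ± 14.6 CPM in WT mice in its coding feature, and 34.2 ± 9.86 CPM in BERKO mice and 35.9 ± 6.45 CPM in WT mice upstream. Counting promoter features alone, the log2 difference in BERKO against WT was 0.19 for Tuba4a and 0.03 for Tuba1b, against 0.44 and 0.24 for all features. The promoter fit was scaled to promoter reads only, so its values are on another scale than the all-feature fit and these CPM. The 5' UTR feature of Tuba4a was also lower on the right in 9 of 11 mice, with 118 ± 41.8 CPM on the right and 170.5 ± 49.0 CPM on the left. The coding reads of Tuba1b are uncertain because of its near copies.

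Genes that act on tubulin were taken from 4 lists. Of the other tubulins and stathmins, 7 of 14 could be tested in BERKO against WT and 4 were above 0 (median 0.07), with Tuba1c at 0.91 ± 0.80, Tubb4b, a beta-tubulin of many cell types, at 0.15 ± 0.15 and Tubb4a, a beta-tubulin abundant in oligodendrocytes, at -0.17 ± 0.22. All 21 genes of tubulin folding and autoregulation were tested, 9 were above 0 and the median was -0.15. Tbca, a chaperone of beta-tubulin, had 87.9 ± 15.2 CPM in BERKO mice and 138 ± 45.2 CPM in WT mice (log2 difference -0.66 ± 0.22, adjusted p 0.315), and the chaperonin subunits Cct8 and Cct5 were at -0.46 ± 0.15 and -0.40 ± 0.15 (adjusted p 0.315 and 0.361). Of the enzymes that modify tubulin, 14 of 22 were tested and 10 were above 0 (median 0.11), with the deglutamylase gene Agtpbp1 at 0.46 ± 0.34, its relative Agbl4 at -1.01 ± 0.76 and the deacetylase gene Hdac6 at -0.46 ± 0.36. Of the genes for severing and plus-end binding, 13 of 17 were tested and 5 were above 0 (median -0.08). Mapre3, which encodes the plus-end protein EB3, had 132 ± 45.1 CPM in BERKO mice and 76.6 ± 10.7 CPM in WT mice, a log2 difference of 0.78 ± 0.20 with an adjusted p of 0.179. Clip1 and Kif2a, which bind and take apart microtubule ends, were at -0.42 ± 0.26 and -0.31 ± 0.21. No gene of the 4 lists passed the threshold in BERKO against WT or in right against left.

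In right against left, the lists gave medians of -0.05, 0.02, 0.17 and -0.04 in the same order, with 6, 21, 13 and 11 genes tested. Of the other tubulins and stathmins, Stmn4 was at 0.11 ± 0.13, Tubg1, the gamma-tubulin of nucleation sites, at -0.21 ± 0.27 and Tubb4a at -0.23 ± 0.30. Of the folding genes, Tbce was at 0.71 ± 0.45, Tcp1 at -0.19 ± 0.14 and Pfdn4 at -0.44 ± 0.35. Ttll7, a tubulin glutamylase gene, was at 0.27 ± 0.16, Tpgs2 at 0.34 ± 0.35 and Agtpbp1 at 0.31 ± 0.33. Of the plus-end genes, Clasp1 was at 0.41 ± 0.30 and Mapre3 at -0.19 ± 0.26.

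Across the 22 biopsies, the 10 genes were correlated in pairs. Of their 45 pairs, 36 had a positive Pearson correlation of log2 CPM, with a median of 0.30 and a range from -0.24 to 0.77. Pairs of all genes were not counted, so this count says nothing particular to the 10 genes. The highest pair was Tuba4a and Stmn1 at 0.77, which was 0.18 without the 3 WT biopsies that stood apart. Tubb3 and Tuba1a stood at 0.55, and at 0.66 without those biopsies. Outside the 10, the 5 genes with the highest Pearson correlation to the mean of their standardised levels, among 5409 genes, were Rpl6, Hspa8, a heat shock protein, Atp6v0c, a subunit of the vesicle proton pump, Rpl9 and Rpl24. Their Pearson correlations were 0.87, 0.81, 0.79, 0.78 and 0.78 in that order, and 0.77, 0.78, 0.84, 0.66 and 0.65 without the 3 biopsies. By Spearman's rho they were 0.64, 0.82, 0.75, 0.58 and 0.52, so their order depends on the measure and on those biopsies. These values are a description over biopsies that share mice and sequencing runs.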

How the data were processed

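RNA 5' ends of 22 motor cortex biopsies were measured by STRT. The deposited values are whole-number counts of reads in each feature, with an annotation. Build mm9, Bowtie and TopHat2 2.0.12 are listed in the submitters' processing notes; the filters and the drawing of features are not given in the sources used here. Counts are reads after PCR, without molecules counted, so the precision of low counts covers counting error only. Of 112460 features, 57 spike-in and 37 ribosomal features were left out and 95410 single-symbol features were summed to 15297 genes. Other features held 4.88% of endogenous reads. All 64 columns were used.

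Column names were tied to mice by their final digit, a reading the labels do not spell out. Lanes were summed, since the chi-square per gene between lanes was 0.690 to 0.849 within a biopsy, against 4.34 to 22.0 between biopsies of a group. The right and left biopsy of a mouse correlated by -0.15 to 0.46 in their deviations from group means. In 3 of 11 mice the left biopsy of the same mouse was the best match of the right one. These correlations do not settle the pairing by final digit. The mouse was the replicate: both sides were summed for genotype, and side and its interaction were fitted with the mouse as a block. That a given right and left biopsy share an animal rests on the reading of the final digit. The labels do not say whether the mice were litters or separate cages.

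Tests were edgeR 4.0.16 quasi-likelihood tests in R 4.3.3 (TMM, default expression filter, two-sided, Benjamini-Hochberg adjusted p, threshold 0.05), with SE from the F statistic. In simulated counts with 200 genes changed 2-fold, 47.5% were recovered for BERKO against WT and 65.5% for right against left. For the interaction 1.5% were recovered, so changes of this size would mostly be missed there. False calls were 9, 4 and 6 in that order. Alternatives were DESeq2 1.42.0, RLE and spike-in scaling, and no or a stricter filter (mean of 20 reads). Others were promoter features, the replicate block, and left-out mice or biopsies. Fits on promoter features used library sizes and TMM factors of those features alone. The pseudocount for log2 CPM in correlations was 1. Sequences came from RefSeq and GENCODE tables, near copies from BLAST 2.17.0. All 10 members are named; of each list, up to 3 genes by smallest p, and the 5 genes most like the members. A list gene that this takes is not reported here. The features with 2 large shares per gene and the read shares were chosen after values were seen. The members and lists were chosen with earlier results of these data known.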

Additional observations from a re-analysis of the deposited data

Results flagged for a closer look

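Of 60 groups of values examined for a sample far from the others, 1 was picked out, where chance gives about 1 in 20. It was Stmn1 in WT mice: WT replicate 1 had 597 CPM (596.6), and the other WT mice 1624 to 2122 CPM. The gap to the nearest mouse was 0.673 of the whole range. Both biopsies of this mouse are among the 3 that stood apart on the first principal component.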

How the results depend on the processing

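The 10 genes kept 0 calls for BERKO against WT and for the interaction in every alternative tried, and 0 in right against left except under DESeq2, where Tubb2b made it 1. Of 190 recomputed member values in each comparison, the sign changed in 16 for BERKO against WT, 25 for right against left and 11 for the interaction. Over all genes, BERKO against WT gave 7 calls, and 45 under DESeq2, 45 under spike-in scaling, 14 with no filter and 11 with the replicate block. Leaving out 1 mouse at a time gave 1 (without BERKO replicate 3) to 18 (without WT replicate 4). Same-numbered BERKO and WT mice correlated by -0.03 to 0.10. This does not settle whether they were paired by number, since right and left biopsies of a mouse also correlated by only -0.15 to 0.46. Right against left gave 0 calls, and 18 under DESeq2, 9 with no filter, 0 with no replicate block, and 0 to 3 (3 without BERKO replicate 2) with 1 mouse left out. Without both biopsies of WT replicates 1 and 2, the interaction changed sign for Tubb2a (-0.043), Tuba1a (-0.0117) and Stmn3 (-0.0120). This set holds the 3 biopsies that stood apart and the right biopsy of WT replicate 2, which did not. With 1 mouse left out, the interaction ranged from -0.12 to 0.31 for Tubb3, -0.064 to 0.16 for Stmn3 and -0.21 to 0.031 for Stmn1. The cause was not tested. Depth per biopsy limits the precision of low genes, and the alternatives without a mouse have fewer mice.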
